A study of Mus musculus with 10 samples.

Results

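The genes described here encode 39 liver enzymes that break down amino acids or move single carbon units. Each was sought by an exact match of its symbol in the platform's probe annotation. Of these, 37 were measured, by 59 of the 45101 probe sets of the array, among 18193 genes in all. No probe set carried the symbol of Sds or Amt, so these genes are not analysed here. The livers came from 10 male B6C3F1/Crl mice, the hybrid offspring of C57BL/6 males and C3H/He females, which were 29 to 32 days old when received and had 5 days to acclimatise. They were divided at random, and 5 of them drank water with 0.05% (w/v) phenobarbital, a barbiturate that induces drug-metabolising enzymes in liver, over 28 days, while the other 5 were controls. The labels give each array its own animal, and RNA came from whole liver extract. The 5-hydroxymethylcytosine study to which the arrays belong compared treated with control liver after exposure to a carcinogen that does not damage DNA.

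The liver is the main site of amino acid breakdown. Nitrogen is removed by aminotransferases or by dedicated lyases and dehydrogenases, and the carbon skeletons feed gluconeogenesis, ketone body formation or the citric acid cycle. One-carbon metabolism links these routes: methionine is activated to S-adenosylmethionine, the methyl donor for DNA, RNA and protein, and carbon units released from serine, glycine, histidine, sarcosine and dimethylglycine are carried on tetrahydrofolate. Several of these enzymes, among them tyrosine aminotransferase and tryptophan dioxygenase, are classical targets of glucocorticoids and fasting.

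Deposited values are log2 expression levels, so a difference of 1 stands for a 2-fold change, and values of different genes are not set against each other because probe sets differ in brightness. Phenobarbital reached the livers: Cyp2b10, its classical target, read 5.62 to 7.07 in controls and 13.45 to 13.56 in treated animals. The arrays differed technically. RNA spike-ins added before labelling averaged 7.77 to 8.64 on control replicates 1, 2, 3 and 5, but 6.40 on control replicate 4 and 5.76 to 6.58 on the treated arrays (exact two-sided permutation p = 0.0238, Benjamini-Hochberg 0.0278 over 7 array measures). Changes that were called among the members are therefore also given as a within-set value, in which the 5 phenobarbital arrays are set against control replicate 4 through a block for the spike-in set. Gapdh probe sets near the 3′ end read below those near the 5′ end, by 0.03 to 0.15 in controls and 0.21 to 0.28 in treated livers (exact two-sided permutation p = 0.00794, Benjamini-Hochberg 0.0278). All 7 array measures differed between the groups (exact two-sided permutation, Benjamini-Hochberg 0.0278 to 0.0317). Control and treated means were 11.01 and 10.66 for hybridisation spike-ins, 13.96 and 13.35 for 18S rRNA, and 1.54 and 1.25 for Actb 3′ minus 5′. The within-set value rests on a single control animal, and the other controls enter it through the variance alone. The hepatocyte marker list, with 6 of 8 genes measured, averaged 14.54 to 14.58 in controls and 14.44 to 14.49 in treated livers. Of the hepatocyte markers 1 of 6 was called lower, beside 4 of 7 stellate cell and 4 of 6 endothelial cell markers and 11.3% of all genes, and with the block none of these was called. Of 4 measured cholangiocyte markers 1 was called higher, Epcam (0.54, within-set value 0.19), a call lost when probe sets were averaged. Of 3 erythroid markers it was Alas2 (0.38, within-set value 0.07), beside 9.02% of all genes called higher. The other markers of these 2 lists ran from -0.17 to 0.08 and were not called. Averages of the stellate list were 8.51 to 8.62 in controls and 8.02 to 8.44 in treated livers, and those of the endothelial list were 8.05 to 8.54 and 7.79 to 8.23. Of 6 kidney markers none was called. Their average was 5.50 in control replicate 2 and 4.73 to 5.00 in the other arrays. In that animal Kap read 7.76 and Umod 4.36, against 5.41 to 6.13 and 3.15 to 3.32 in the other controls. Slc12a1 and Nphs1 were also the highest of the controls there, while Slc34a1 and Aqp2 were not. Whether these shifts contribute to the values below was not tested. In whole liver, fewer cells of a type and less RNA per cell cannot be told apart.

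In the fit over all arrays, without the block, most amino acid enzymes were not called under phenobarbital, and 8 of the 37 were. Etnppl, Dbt, Dmgdh, Aass, Cbs, Mat1a and Kmo fell and Shmt2 rose, by limma at an adjusted p under 0.05 over all genes. That is 21.6% of the measured members, near the 20.3% of all 18193 genes that were called. By direction, 7 members were lower, against 11.3% of all genes, and 1 was higher, against 9.02% of all genes. The median log2 fold change was -0.03 over the members and 0.01 over all genes. No member changed 2-fold, a size passed by 109 called genes elsewhere. For all 29 members that were not called, the 95% interval of this fit lay within 0.5 on the log2 scale in either direction, a 1.41-fold change. The 29 values ran from -0.16 to 0.26. These limits hold for the brightest probe sets and without the block. With the spike-in set as a block some intervals reached further, as for Tat (-0.62 to 0.22), Kynu (-0.58 to 0.04) and Gldc (-0.53 to 0.07).

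Treated and control livers did not overlap in 8 of the 37 members, all lower in treated animals: Etnppl, Dmgdh, Aass, Cbs, Mat1a, Kmo, Bhmt and Tdo2. Separation in either direction was seen in 12.9% of all genes, and the share separated lower was not counted. Bhmt and Tdo2 separated without being called. With the spike-in set as a block, Dmgdh was the only member called, where 0.786% of all genes were called, and 5 members had an unadjusted p under 0.05. All 8 called members kept their sign in that fit, although the within-set value of Shmt2 was 0.00.

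**Figure D1:**
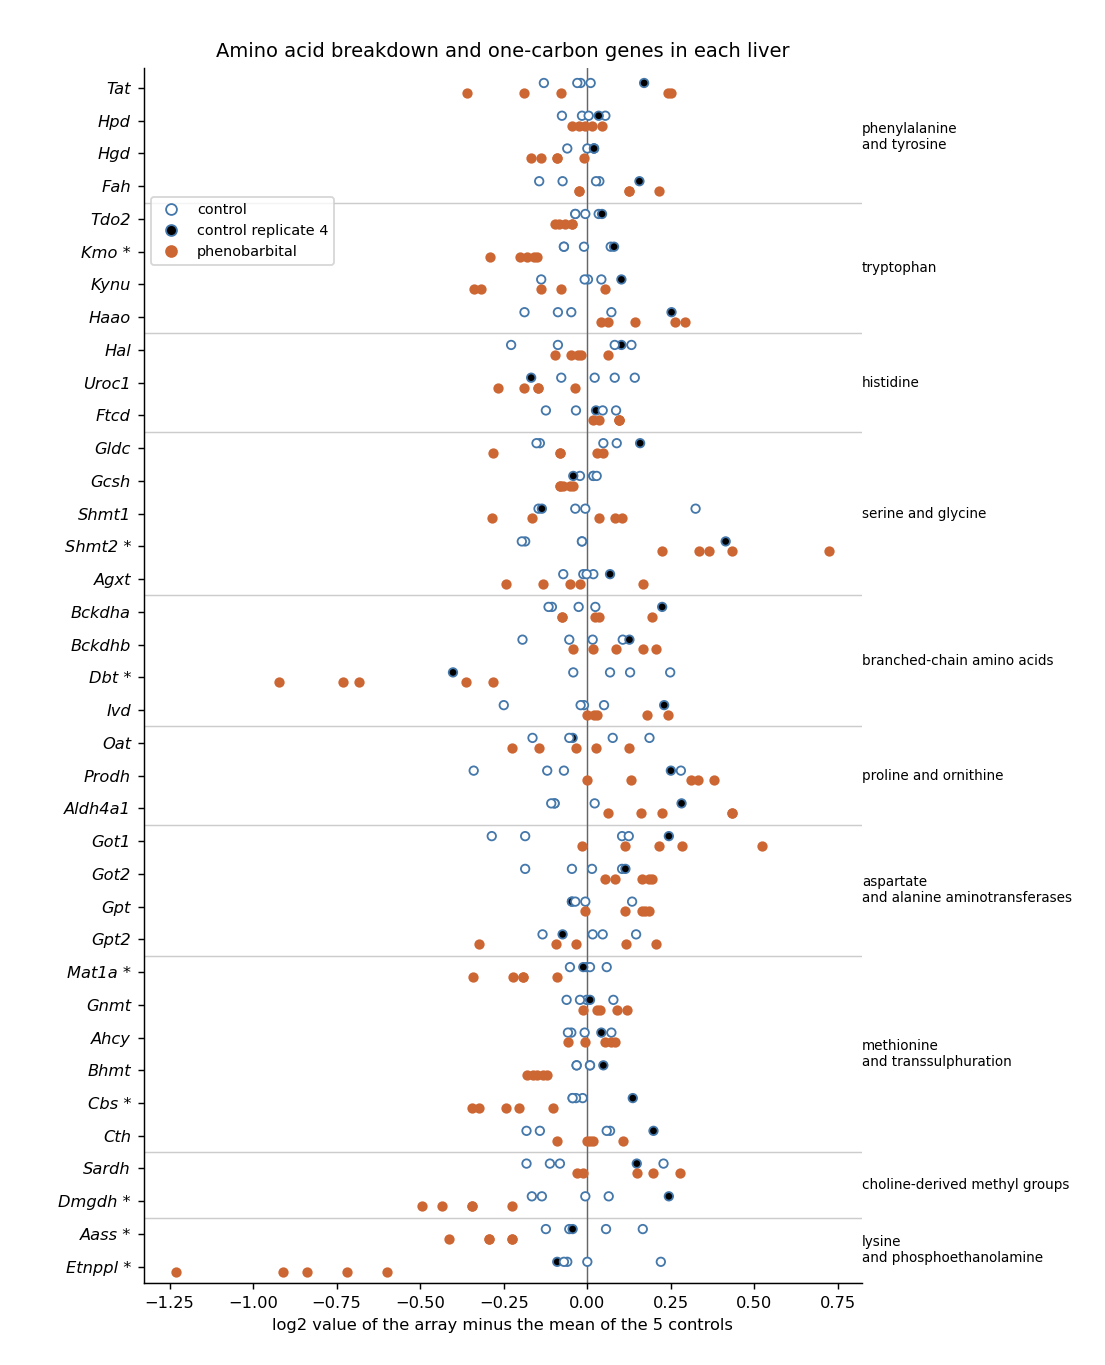
Each row is a measured member and each point a liver, plotted as its log2 value minus the mean of the 5 controls; open circles are controls, the black circle is control replicate 4, filled orange circles are phenobarbital livers, and an asterisk marks a called member. The treated points of Etnppl, Dmgdh, Aass, Cbs, Mat1a and Kmo lie left of every control, while most other rows overlap.

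Etnppl fell most. It encodes ethanolamine-phosphate phospho-lyase, a pyridoxal phosphate enzyme that breaks phosphoethanolamine into ammonia, acetaldehyde and phosphate. Its log2 level was 11.94, 12.00, 12.22, 11.91 and 11.93 in control replicates 1 to 5. In phenobarbital replicates 1 to 5 it was 11.40, 11.28, 11.16, 11.09 and 10.77. Every treated liver lay well below the lowest control. On the log2 scale treated livers differed by -0.86 ± 0.11 (SE; n = 5 per group, limma adjusted p = 0.000366), a change of -44.9%. It was called whichever animal was left out (-0.93 to -0.77). Control replicate 4 lay with the other controls, and the within-set value was -0.77 (limma adjusted p = 0.103). A dimmer Etnppl probe set, at 7.09 in controls, gave -0.25 ± 0.68 (SE, limma adjusted p = 0.827), and with both averaged the change was -0.55 and not called (limma adjusted p = 0.299).

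Lysine is broken down in mitochondria along the saccharopine route, which opens with Aass, the bifunctional aminoadipate semialdehyde synthase. Aass fell from 11.79 ± 0.11 to 11.50 ± 0.08 (SD, n = 5 each), with control values of 11.85, 11.74, 11.96, 11.75 and 11.67 and treated values of 11.57, 11.38, 11.57, 11.50 and 11.50. The highest treated livers lay just below the lowest control. The difference was -0.29 ± 0.07 on the log2 scale (SE, limma adjusted p = 0.0132), and the within-set value was -0.25 (limma adjusted p = 0.413). Other genes of lysine breakdown were measured as well. Aadat, an aminotransferase acting on aminoadipate and kynurenine, fell by 0.29 on the log2 scale, Dhtkd1, of the 2-oxoadipate dehydrogenase complex, by 0.46, and Hykk, the hydroxylysine kinase of a side route, by 0.87. Aldh7a1, the aminoadipate semialdehyde dehydrogenase, and Gcdh, the glutaryl-CoA dehydrogenase, had log2 fold changes of 0.17 and -0.08 and were not called. Within the set, Hykk had a value of -0.59, Aadat of -0.33 and Dhtkd1 of -0.24, none called (limma adjusted p between 0.266 and 0.510).

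Among branched-chain enzymes, Dbt fell and Bckdha, Bckdhb and Ivd were not called. Bckdha and Bckdhb form the decarboxylase and Dbt the transacylase core of the mitochondrial branched-chain ketoacid dehydrogenase, and Ivd oxidises isovaleryl-CoA from leucine. Dbt read 10.28, 10.11, 10.40, 9.75 and 10.22 in controls and 9.87, 9.23, 9.47, 9.42 and 9.79 in treated livers. The groups overlapped because control replicate 4, at 9.75, lay below phenobarbital replicates 1 and 5. Dbt differed by -0.60 ± 0.14 on the log2 scale (SE, limma adjusted p = 0.0108), with a within-set value of -0.19 (limma adjusted p = 0.726). Log2 fold changes of Bckdha, Bckdhb and Ivd were 0.02, 0.09 and 0.09, each with a 95% interval between -0.15 and 0.28. Ppm1k, the phosphatase that activates the same complex, had the lowest value of these pathways. It fell from 11.29 ± 0.18 to 10.28 ± 0.29 (SD, n = 5 each), a log2 fold change of -1.01 (within-set value -0.84, limma adjusted p = 0.126). Bckdk, the opposing kinase, was not called (0.16).

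**Figure D2:**
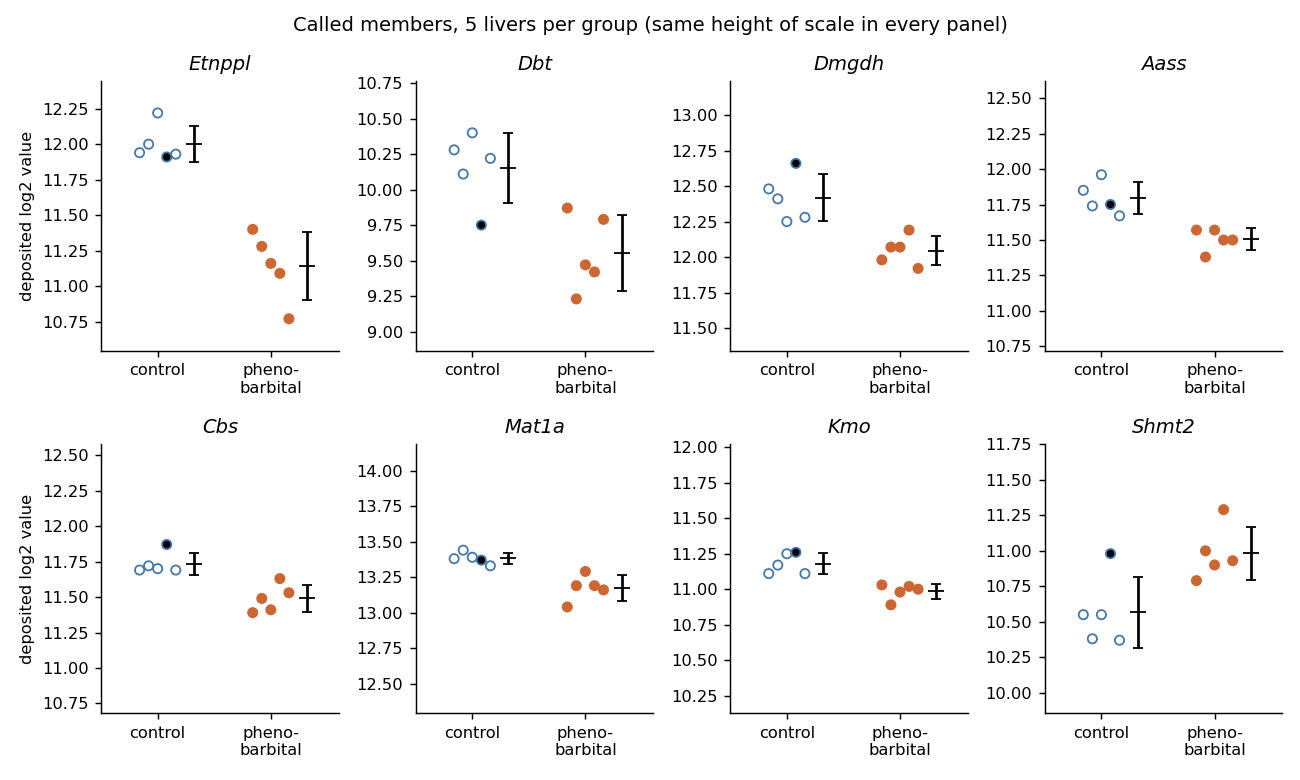
Deposited log2 value of the 8 called members in each of 5 control and 5 phenobarbital livers, ordered by their change, with the mean and SD beside each group and control replicate 4 in black; every panel spans the same height on the log2 scale. Control replicate 4 lies among the treated livers for Dbt (9.75) and Shmt2 (10.98), and at the top of the controls for Dmgdh (12.66), Cbs (11.87) and Kmo (11.26).

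Choline-derived methyl groups are oxidised in mitochondria by dimethylglycine dehydrogenase (Dmgdh) and then sarcosine dehydrogenase (Sardh), which pass a carbon unit to tetrahydrofolate. Dmgdh fell and Sardh did not. Dmgdh read 12.48, 12.41, 12.25, 12.66 and 12.28 in controls and 11.98, 12.07, 12.07, 12.19 and 11.92 in treated livers. All treated values lay below all controls, with phenobarbital replicate 4 and control replicate 3 closest. The difference was -0.37 ± 0.09 on the log2 scale (SE, limma adjusted p = 0.0108), and it stayed between -0.41 and -0.31 with a single animal left out, called each time. Its within-set value of -0.61 also passed (limma adjusted p = 0.0463), and rests on control replicate 4, the highest control. With the spike-in mean as a covariate in place of the block, Dmgdh was not called. Sardh differed by 0.12 ± 0.09 on the log2 scale (SE, limma adjusted p = 0.398), with a within-set value of -0.03.

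Methionine metabolism had 2 of 6 members lower and none higher, beside 11.3% of all genes lower and 9.02% higher, and none of the 6 was called with the block. Mat1a, the liver-specific enzyme that makes S-adenosylmethionine, read 13.38, 13.44, 13.39, 13.37 and 13.33 in controls and 13.04, 13.19, 13.29, 13.19 and 13.16 in treated livers. The spread of the controls was small (SD 0.04), and the mean changed by -0.21 ± 0.06 on the log2 scale (SE, limma adjusted p = 0.0315), or -13.4%. Its within-set value was -0.20 (limma adjusted p = 0.461). The call was lost in 7 of 10 fits that left out an animal and after median centring. Cbs, which condenses homocysteine with serine in the first step of transsulphuration, read 11.69, 11.72, 11.70, 11.87 and 11.69 in controls and 11.39, 11.49, 11.41, 11.63 and 11.53 in treated livers. The difference was -0.24 ± 0.07 (SE, limma adjusted p = 0.0233), with a within-set value of -0.38 (limma adjusted p = 0.144), and the call was lost without phenobarbital replicate 1, 2 or 3. The second Cbs probe set gave -0.02, and with both averaged the change was -0.13 and not called (limma adjusted p = 0.307).

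The other methionine enzymes stayed close to their control level. Bhmt, which remethylates homocysteine with betaine, read 14.47 to 14.55 in controls and 14.32 to 14.38 in treated livers, a separated but small difference of -0.15 ± 0.05 (SE, limma adjusted p = 0.0618) near the top of the scale, which ends at 15.13. It was called when dim genes were left out, when genes were averaged over probe sets and when the variance was moderated by a robust trend. Gnmt, the glycine methyltransferase that consumes spare S-adenosylmethionine, was at 14.25 ± 0.05 in controls and 14.30 ± 0.05 in treated livers (SD, n = 5 each). Ahcy, which hydrolyses S-adenosylhomocysteine, was at 13.77 ± 0.06 and 13.80 ± 0.06, and Cth, the lyase that follows Cbs, at 13.49 ± 0.16 and 13.50 ± 0.07 (SD, n = 5 each). None of these 3 was called by limma, at adjusted p between 0.547 and 0.954. Of 12 measured genes of the wider methionine list, 2 were lower and none higher, beside 11.3% and 9.02% of all genes. The median log2 fold change of the 12 was 0.02. Gatm, which starts creatine synthesis, fell by 0.36 (within-set value -0.16, limma adjusted p = 0.596). Bhmt2 fell by 0.20 (within-set value -0.14), a call that held in 4 of 10 fits without an animal. It was lost after median centring, with averaged probe sets and on the single-transcript probe set.

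Serine and glycine enzymes held the only rise. Shmt2, the mitochondrial serine hydroxymethyltransferase that splits serine into glycine and a folate-bound carbon, read 10.55, 10.38, 10.55, 10.98 and 10.37 in controls and 10.79, 11.00, 10.90, 11.29 and 10.93 in treated livers. Control replicate 4 lay above phenobarbital replicates 1, 3 and 5, and every other control lay below all treated animals. The difference was 0.42 ± 0.12 on the log2 scale (SE, limma adjusted p = 0.0287), or 33.4%, and the within-set value was 0.00 ± 0.16 (SE). It was lost in 6 of 10 fits without an animal. Tested singly, 3 of 4 Shmt2 probe sets were called, all higher (0.33 to 0.51), where 20.3% of all 34945 probe sets were called. Shmt1, the cytosolic form, was not called on its brightest probe set (-0.05 ± 0.10 SE), while 2 of its other 3 probe sets were higher, by 0.70 and 0.31.

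Gldc and Gcsh, the decarboxylase and lipoyl carrier of the mitochondrial glycine cleavage system, had log2 fold changes of -0.07 each. Agxt, which turns glyoxylate into glycine, had one of -0.06, and none was called. Gcsh was among the steadiest members, with 11.35 to 11.42 in controls and 11.31 to 11.35 in treated livers. In the wider serine and glycine list, 3 of 10 measured genes were higher and none lower, beside 9.02% and 11.3% of all genes: Agxt2, a mitochondrial alanine-glyoxylate aminotransferase, by 0.33, Phgdh, the first enzyme of serine synthesis, by 0.24, and Glyat, which conjugates glycine to acyl groups, by 0.22. Their within-set values were 0.17, 0.06 and 0.20, in that order, and none was called (limma adjusted p between 0.369 and 0.864). Averaged over its probe sets Phgdh was at -0.016, and Glyat at -0.19 on its single-transcript probe set.

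Tryptophan enzymes had 1 of 4 members lower, beside 11.3% of all genes. Kmo, the kynurenine monooxygenase of the outer mitochondrial membrane, read 11.11, 11.17, 11.25, 11.26 and 11.11 in controls and 11.03, 10.89, 10.98, 11.02 and 11.00 in treated livers, differing by -0.20 ± 0.06 (SE, limma adjusted p = 0.0367). The within-set value was -0.28 (limma adjusted p = 0.257). This small separation lost its call in 8 of 10 fits without an animal and after median centring. Tdo2, the dioxygenase that opens the pathway, read 13.86 to 13.94 in controls and 13.80 to 13.85 in treated livers (-0.07 ± 0.05 SE, limma adjusted p = 0.386). Its other 2 probe sets, at 12.17 and 12.07 in controls, were both called lower, at -0.27 and -0.23, and with the mean of the 3 probe sets Tdo2 was called at -0.19. Kynu, the kynureninase, had a log2 fold change of -0.16 and Haao, which makes the quinolinate precursor, of 0.16, neither called, although Kynu was called at -0.26 when its 2 probe sets were averaged. Kyat3, a kynurenine aminotransferase, rose by 0.25 (within-set value 0.24, limma adjusted p = 0.439).

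Tyrosine and histidine enzymes were not called. Hgd, homogentisate dioxygenase, had the smallest p of the tyrosine members: it read 13.22, 13.20, 13.22, 13.22 and 13.14 in controls and 13.06, 13.11, 13.11, 13.19 and 13.03 in treated livers. In 4 of 5 treated livers Hgd lay below every control (-0.10 ± 0.06 SE, limma adjusted p = 0.228). A dimmer Hgd probe set was lower by 0.87 and was called singly, and the mean of both was called at -0.48. Tat, the aminotransferase that starts tyrosine breakdown, differed more among treated animals (SD 0.27) than among controls (SD 0.11), with 12.70, 13.30, 12.98, 13.31 and 12.87 against 13.04, 13.03, 13.07, 13.23 and 12.93. Treated Tat values lay on both sides of the control range, and their mean differed by -0.03 ± 0.11 (SE). Hpd, the hydroxyphenylpyruvate dioxygenase, and Fah, the terminal hydrolase, had log2 fold changes of 0.00 and 0.08.

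Histidine is opened by Hal, the ammonia-lyase, carried on by Uroc1, the urocanate hydratase, and ended by Ftcd, which hands a formimino group to folate. Uroc1 read 11.98, 11.86, 11.76, 11.67 and 11.92 in controls and 11.57, 11.69, 11.80, 11.65 and 11.69 in treated livers. The groups overlapped, and the difference was -0.16 ± 0.07 (SE, limma adjusted p = 0.142). Its other probe set went the opposite way, by 0.40, and was called, so the direction of Uroc1 depends on the probe set. Hal and Ftcd had log2 fold changes of -0.03 and 0.07.

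Proline, ornithine and transaminase members were not called either. Aldh4a1, the mitochondrial dehydrogenase that turns the proline breakdown product into glutamate, read 10.57, 10.45, 10.45, 10.83 and 10.44 in controls and 10.61, 10.98, 10.71, 10.98 and 10.77 in treated livers. Control replicate 4 stood inside the treated range and the other controls below it. The difference of 0.26 ± 0.10 (SE) missed the threshold (limma adjusted p = 0.0717), was called in 5 of 10 alternative fits and in 2 of 10 fits without an animal, and was -0.02 within the set. Prodh, the proline dehydrogenase before it, had a value of 0.23 and Oat, the ornithine aminotransferase, of -0.05. In the wider list Aldh18a1, which makes proline and ornithine precursors, was called higher by 0.35 at a low level of 5.06 in controls (within-set value 0.18, limma adjusted p = 0.738), and was at -0.004 when its probe sets were averaged.

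Aspartate and alanine aminotransferases exist in cytosolic (Got1, Gpt) and mitochondrial (Got2, Gpt2) forms, and the release of their proteins is a clinical sign of liver injury. Gpt had the smallest p of the 4: it read 11.65, 11.51, 11.47, 11.47 and 11.48 in controls and 11.51, 11.69, 11.68, 11.70 and 11.63 in treated livers. Of the treated livers, 3 lay above every control (0.13 ± 0.06 SE, limma adjusted p = 0.178). The log2 fold changes of Got1, Got2 and Gpt2 were 0.22, 0.14 and -0.03, and within the set they were -0.02, 0.02 and 0.05. Got2 was called higher, by 0.32, on its brightest single-transcript probe set. A dim Got2 probe set, at 5.74 in controls, was called lower when tested singly (-0.47). Of 4 Gpt2 probe sets tested singly 1 was called, and it was higher (0.35). Glud1, the mitochondrial glutamate dehydrogenase that frees the nitrogen collected by these enzymes, fell by 0.28 (within-set value -0.26, limma adjusted p = 0.299).

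**Figure D3:**
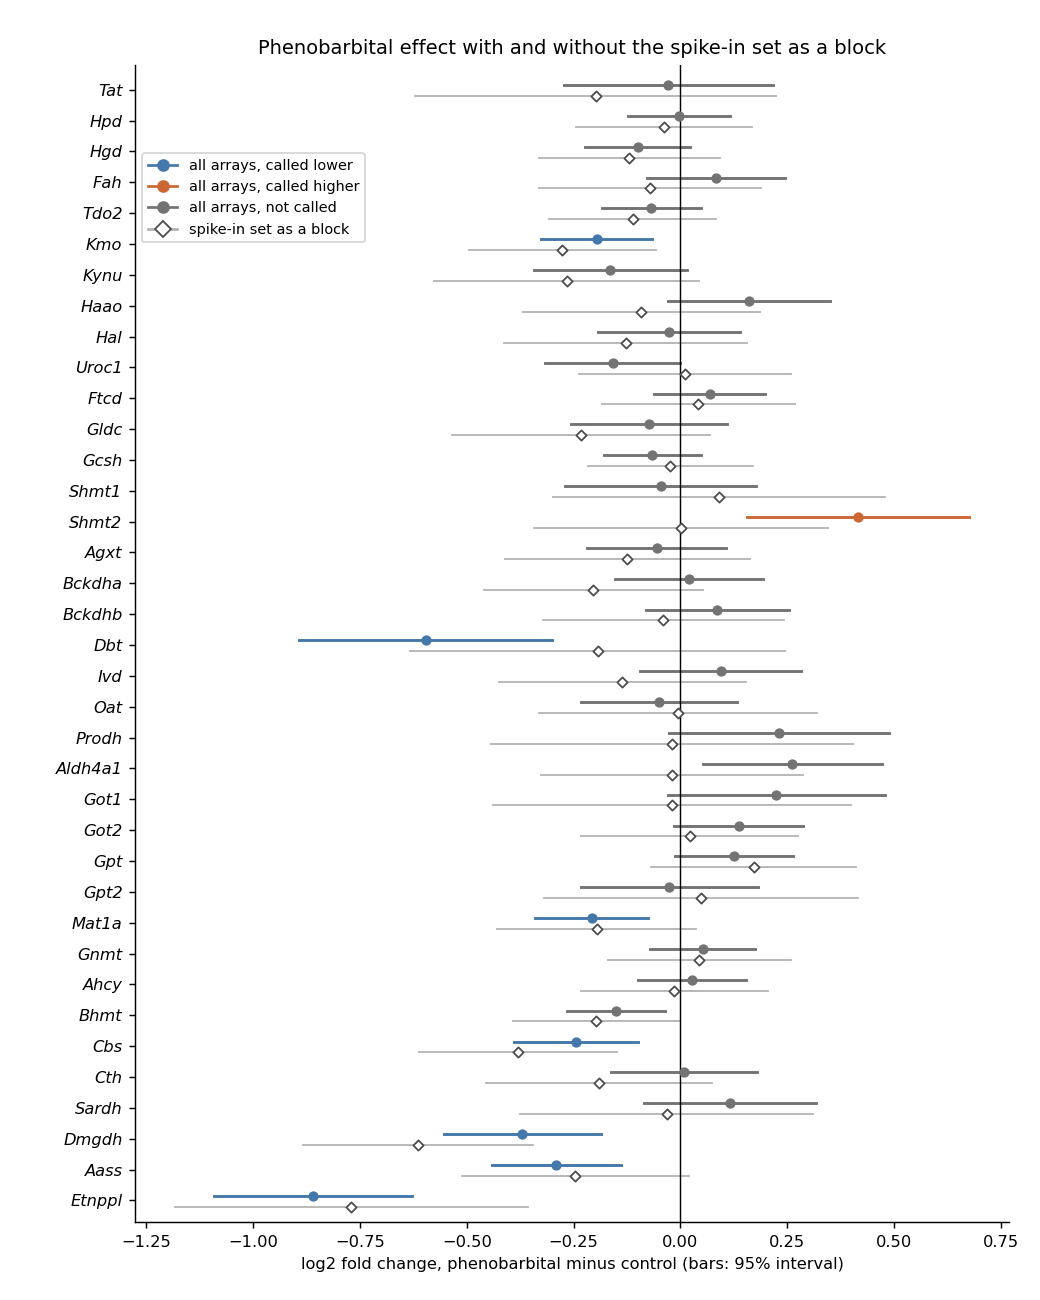
Log2 fold change of each measured member, phenobarbital minus control, with its 95% interval: circles are the fit over all arrays, coloured where called, and diamonds the fit with the spike-in set as a block. Diamonds lie left of zero for 29 of 37 members, against 21 of 37 circles, and the diamond of Dmgdh is the only one called. Over all 18193 genes, 10563 values were negative with the block and 8803 without it.

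Control replicate 4 was the highest control in 19 of 37 members (51.4%), against 29.9% of all genes. For Haao, Ivd, Bckdha, Gldc, Cth and Aldh4a1 it exceeded each of the other controls. With the block 29 of 37 members had a negative value, against 21 without it, beside 10563 and 8803 of all 18193 genes. The median over members then moved from -0.03 to -0.09, beside -0.04 over all genes. Variation among animals was shared by many members: phenobarbital replicate 4 was the highest treated liver in 18, and control replicate 5 and phenobarbital replicate 5 were each the lowest of their group in 15. The members' mean was 12.05 to 12.20 in controls and 12.01 to 12.14 in treated livers, so the groups overlapped. The median SD over members was 0.12 in controls and 0.10 in treated livers, beside 0.14 and 0.11 over all genes.

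In 6 pairs of related enzymes the log2 value of the second was subtracted from that of the first in each liver. The mean of this difference was compared between treated and control livers by an exact two-sided permutation test over animals. Sardh and Dmgdh parted most: Sardh minus Dmgdh was -1.36 to -1.09 in controls and -0.83 to -0.63 in treated livers, a difference in change of 0.49 (95% interval 0.34 to 0.63; exact permutation p = 0.00794, the smallest possible, Benjamini-Hochberg 0.0476 over the 6 pairs). It was 0.58 against control replicate 4 alone. Cbs fell against Cth by 0.25 (exact permutation p = 0.0159, Benjamini-Hochberg 0.0476). That call was lost after quantile normalisation (-0.19), when probe sets were averaged (-0.14) and in 6 of the 10 omissions of an animal. For Shmt1 against Shmt2 the difference was -0.46 (95% interval -0.85 to -0.07; exact permutation p = 0.0317, Benjamini-Hochberg 0.0635), and 0.09 against control replicate 4. When probe sets were averaged it was -0.16 (exact permutation, Benjamini-Hochberg 0.333). Got1 against Got2 gave 0.09 (95% interval -0.17 to 0.34), Gpt against Gpt2 0.15 (-0.11 to 0.41) and Tat against Hpd -0.02 (-0.28 to 0.23), with Benjamini-Hochberg values of 0.345 to 0.817.

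**Figure D4:**
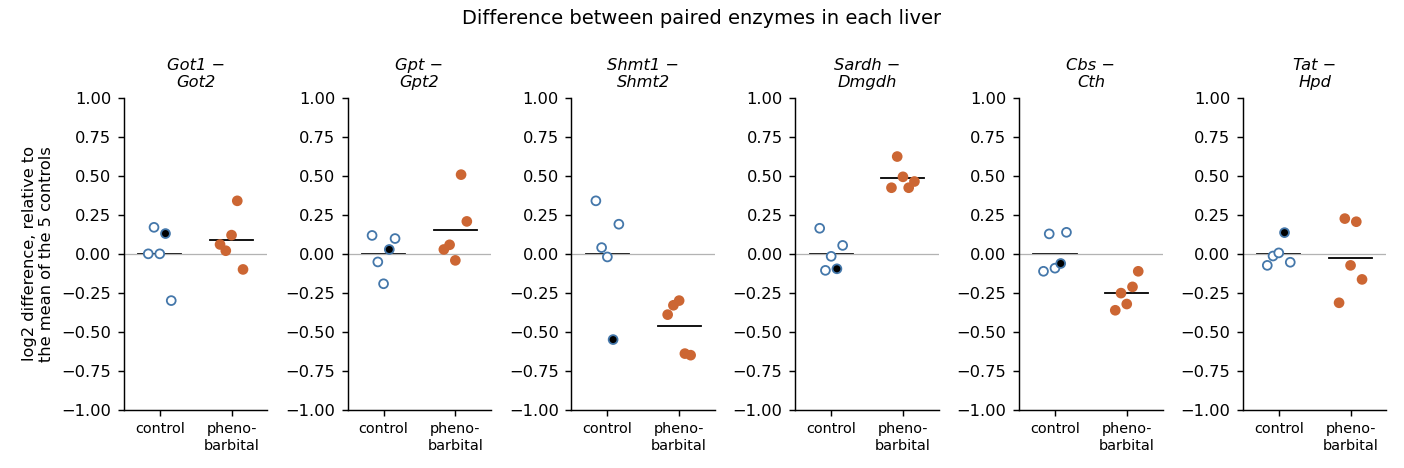
Log2 difference between the 2 enzymes of each pair in every liver, shown relative to the mean of the 5 controls; open circles are controls, the black circle control replicate 4, orange circles phenobarbital livers, and lines group means. The treated livers stand above all controls for Sardh minus Dmgdh, where the effect difference was 0.49.

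By place in the cell, 6 of 17 measured mitochondrial members were called (Kmo, Dbt, Dmgdh, Aass, Etnppl and Shmt2) and 2 of 19 cytosolic ones (Mat1a and Cbs), with a median log2 fold change of -0.03 in each list, beside 20.3% of all genes called. With the block these were 1 of 17 and 0 of 19, beside 0.786% of all genes. Enzymes that use pyridoxal phosphate had 3 of 14 members called. Of the folate-dependent members Dmgdh fell, Shmt2 rose, and Ftcd, Shmt1 and Sardh were not called. No difference between these lists was tested.

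Promoters are shown for the called members that held in every omission of an animal and for Shmt2, the single rise; Dbt had no entry in the sequence table. Sequences are from RefSeq on GRCm38.p6, which had entries for 33 of the 39 members, and each runs 5′ to 3′ on the gene's strand from 250 bases before to 50 after a listed start. Capitals mark matches, on either strand, to the GC box GGGCGG, to the CCAAT box, to the TATA box letters TATAAA and to AGGTCA, the core that many nuclear receptors bind. No printed match overlaps another, and the Shmt2 window holds none. Windows lie at chr3:130617198-130617497 (plus strand) for Etnppl, the upstream of 2 listed starts, chr6:23132937-23133236 (minus) for Aass, chr13:93674186-93674485 (plus) for Dmgdh and chr10:127522395-127522694 (minus) for Shmt2.
Etnppl: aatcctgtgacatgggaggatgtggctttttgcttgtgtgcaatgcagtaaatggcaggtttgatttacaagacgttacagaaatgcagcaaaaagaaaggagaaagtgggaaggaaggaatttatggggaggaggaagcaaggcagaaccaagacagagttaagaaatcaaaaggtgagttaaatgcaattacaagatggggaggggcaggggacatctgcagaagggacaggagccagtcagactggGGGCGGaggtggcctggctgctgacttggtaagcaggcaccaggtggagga
Aass: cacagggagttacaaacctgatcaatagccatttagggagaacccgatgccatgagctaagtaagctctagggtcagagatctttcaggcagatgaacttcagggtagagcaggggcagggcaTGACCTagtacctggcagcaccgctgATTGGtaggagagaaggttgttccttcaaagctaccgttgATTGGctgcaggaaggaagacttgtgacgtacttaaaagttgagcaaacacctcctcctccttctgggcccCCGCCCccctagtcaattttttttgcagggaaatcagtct
Dmgdh: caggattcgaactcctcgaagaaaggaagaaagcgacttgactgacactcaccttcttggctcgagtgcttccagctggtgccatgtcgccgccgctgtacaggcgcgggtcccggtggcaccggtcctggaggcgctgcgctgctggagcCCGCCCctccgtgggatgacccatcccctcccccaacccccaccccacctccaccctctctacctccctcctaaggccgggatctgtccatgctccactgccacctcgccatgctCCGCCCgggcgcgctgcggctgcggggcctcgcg
Shmt2: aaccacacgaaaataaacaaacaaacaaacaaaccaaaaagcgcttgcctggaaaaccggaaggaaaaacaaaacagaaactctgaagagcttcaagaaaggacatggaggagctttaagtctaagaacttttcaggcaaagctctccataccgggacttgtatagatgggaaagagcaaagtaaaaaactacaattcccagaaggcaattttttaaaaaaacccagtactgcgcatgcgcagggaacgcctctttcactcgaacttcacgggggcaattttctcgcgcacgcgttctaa

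No match is common to the 4 printed windows. GGGCGG stands in those of Etnppl, Aass and Dmgdh, which holds 2. CCAAT stands at 2 places and AGGTCA at 1 in that of Aass. The Dmgdh window has a GC content of 68.0%, against 42.7% for Shmt2. Over all 33 members with an entry, and counting a gene once whichever of its starts held the match, AGGTCA was present in 14 (42.4%), against 18.1% of all 27025 genes with an entry and 16.3% of all 32851 promoters. CCAAT was present in 19 members (57.6%), against 41.1% of genes and 37.4% of promoters. GGGCGG was present in 14 (42.4%), against 38.2% of genes and 35.7% of promoters, and TATAAA in 5 (15.2%), against 15.7% of genes and 13.6% of promoters. Of the 6 called members with an entry, GGGCGG was present in 4 (Cbs, Dmgdh, Aass and Etnppl), AGGTCA in 2 (Aass and the other listed start of Etnppl), CCAAT in 2 (Aass and Cbs) and TATAAA in none. These matches are letters in a window, and binding was not measured.

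Further enzymes of the same pathways gave counts like those of the members. Of 78 listed genes outside the members 67 were measured, of which 5 were called higher and 10 lower, 22.4% against 20.3% of all genes, with a median log2 fold change of 0.02. With the block limma called none, and 8 had an unadjusted p under 0.05. Ppm1k, Hykk, Dhtkd1, Gatm, Aadat and Glud1 fell most, and Aldh18a1, Agxt2, Kyat3, Phgdh and Glyat rose. Ppm1k, Hykk, Dhtkd1, Gatm and Glud1 were called whichever animal was left out, as were Aadat, Agxt2 and Glyat, while Kyat3 held in 6 of those 10 fits and Phgdh and Aldh18a1 in 2 each. The other 4 lower genes, Acad8 of valine breakdown, Chdh of betaine synthesis, Amdhd1 of histidine breakdown and the betaine enzyme Bhmt2, had log2 fold changes between -0.25 and -0.20.

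**Figure D5:**
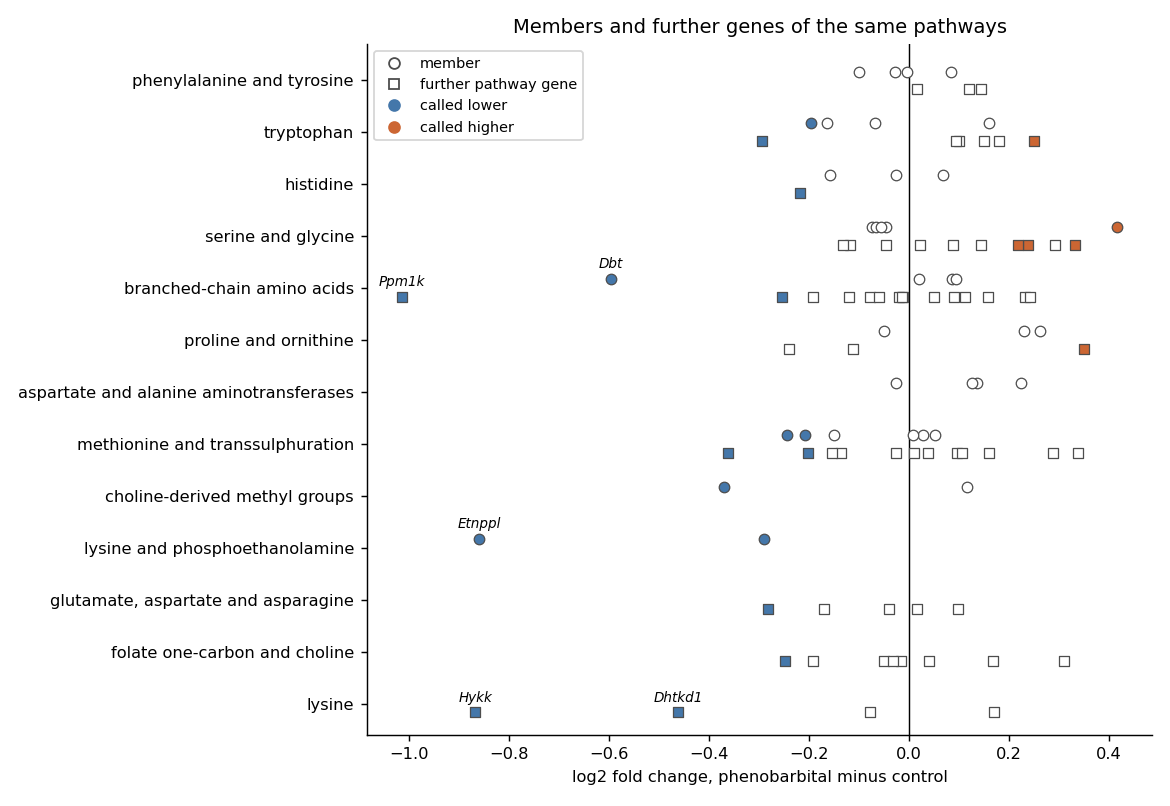
Log2 fold change, phenobarbital minus control, of the measured members (circles) and further genes (squares) by pathway, filled where called and named where past 0.45 in size. Ppm1k (-1.01), Hykk (-0.87), Etnppl (-0.86), Dbt (-0.60) and Dhtkd1 (-0.46) stand furthest from zero.

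Of 7 measured regulators that act on amino acid breakdown genes, 2 were lower and 1 higher, beside 11.3% and 9.02% of all genes. Nr3c1, the glucocorticoid receptor, read 9.55, 9.54, 9.68, 9.55 and 9.58 in controls and 9.29, 9.22, 9.47, 9.27 and 9.33 in treated livers, differing by -0.26 ± 0.06 (SE, limma adjusted p = 0.0136; within-set value -0.23, limma adjusted p = 0.393). Foxo1, a fasting-activated factor restrained by insulin, fell by 0.47 with separated groups (within-set value -0.44, limma adjusted p = 0.351). The Foxo1 call was lost when its probe sets were averaged (-0.18) and with single-transcript probe sets. Atf4, which acts when amino acids are scarce, rose by 0.34 (within-set value 0.32, limma adjusted p = 0.478), a call lost in 5 of 10 fits without an animal and when its probe sets were averaged (0.12). Klf15, Cebpa, Cebpb and Hnf4a were not called, with log2 fold changes of -0.23, 0.24, -0.29 and 0.09. With the block limma called none of the 7, and Foxo1 alone had an unadjusted p under 0.05.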

How the data were processed

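RNA from 10 whole livers was labelled from 0.1 µg by oligo(dT)-primed amplification and hybridised to Affymetrix 3' arrays, per the labels' protocols, so signal depends on the 3' end of polyadenylated RNA. The authors deposited log2 values, 1 per probe set and array (2.34 to 15.13, the log2 scale being read from this range); GCOS is named in the submitters' processing notes, and the summary and normalisation methods are not given in the sources used here. Values were used as deposited. Array quartiles differed by at most 0.16, but the upper quartile was 7.39 to 7.46 in controls and 7.30 to 7.36 in treated arrays (exact two-sided permutation p = 0.00794, Benjamini-Hochberg 0.0278 over 7 array measures); quantile normalisation and median centring were tried as alternatives. The number of arrays limits the precision.

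Each of 18193 genes with a single symbol was represented by its brightest probe set over all arrays. The difference between treated and control livers was fitted with lmFit and eBayes of limma 3.58.1 under R 4.3.3 (two-sided), with Benjamini-Hochberg adjustment over all genes and a threshold of 0.05. No filter on low values was applied. The members, gene lists, pairs and alternatives were chosen with earlier results of these data known. Named genes are all members, the regulators, and up to 6 called genes of the wider list in each direction; values in every liver are given for called members and for the smallest p of each other group, with Tat, Nr3c1 and the other named genes of the wider list chosen after their values were seen. The fit was tested on simulated data with independent noise for each gene and array. These data held no shift between spike-in sets, so the test does not bear on that shift. Figures were drawn with matplotlib 3.10.9.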

Additional observations from a re-analysis of the deposited data

Results flagged for a closer look

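In 4 of 112 groups of 5 livers, a single animal stood apart from the other 4 by more than Dixon's 95% critical value, a limit that chance passes in about 1 of 20 groups. All 4 were controls. Cbs was 11.87 in control replicate 4 and 11.69 to 11.72 in the other controls, and this animal is also the control behind the within-set value of Cbs. Gpt was 11.65 in control replicate 1 against 11.47 to 11.51. Hgd was 13.14 in control replicate 5 against 13.20 to 13.22. Nr3c1 was 9.68 in control replicate 3 against 9.54 to 9.58.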

How the results depend on the processing

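Counts, the median and gene values were recomputed under 10 other settings and without each animal, and the 6 enzyme pairs under quantile normalisation, median centring, averaged probe sets and without each animal. Of 737 recomputed member values, 45 lost and 14 gained a call; 56 values that were called in neither fit changed sign. Members called higher numbered 1; they were 2 with quantile normalisation, median centring, trend and robust variance, array weights or the replicate number as a block, 3 on single-transcript probe sets, 0 with the spike-in set block and 0 with the covariate, and 0 to 2 without an animal. Members called lower numbered 7. They were 9 with averaged probe sets, and 8 with dim genes left out or with trend and robust variance. Quantile normalisation and array weights gave 7, and single-transcript probe sets 6. They were 5 with median centring or the replicate block, 1 with the spike-in set block and 0 with the covariate. Without an animal they were 4 to 7 (4 without phenobarbital replicate 1 or 2). At an unadjusted p under 0.05 limma gave 5 members with the spike-in set block and 5 with the covariate. The median over members was -0.092 with the spike-in set block. Calls over all genes numbered 3692, and were 3664 with the replicate block, 143 with the spike-in set block, 129 with the covariate and 2431 to 4610 without an animal, with 2460 without control replicate 2 and 2431 without phenobarbital replicate 2. Nothing in the labels pairs the replicate numbers: deviations of same-numbered animals correlated at -0.02 to 0.12, and 2 of 5 controls correlated best with the treated animal of their own number.

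Cbs minus Cth lost its call with quantile normalisation (-0.19), with the mean of probe sets (-0.14) and in 6 omissions (-0.287 to -0.2175 over all 10). Shmt1 minus Shmt2 gained a call without control replicate 4 (-0.60 to -0.38 over all 10), and was -0.16 and not called with the mean of probe sets. Signs turned for Uroc1 on its single-transcript probe set (0.40), for Aldh18a1 and Phgdh with the mean of probe sets (-0.004 and -0.016) and for Glyat on its single-transcript probe set (-0.19). Apart from the changed probe sets, and the animals left out, the cause of these changes was not tested. Values at the top of the scale, as for Bhmt and Gnmt, may understate a change.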
